A study of Mus musculus with 12 samples.

Results

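Glycerol kinase phosphorylates glycerol to glycerol-3-phosphate, the backbone from which glycerolipids are built and a carrier of reducing equivalents to mitochondria. Gk2 and Gykl1 are testis-expressed, intronless copies of the X-linked gene Gk, and their proteins sit on the outer mitochondrial membrane of spermatids, where they are known to act with the phospholipase PLD6 when mitochondria wrap around the sperm midpiece as the mitochondrial sheath. Gk5 is a further member of the kinase family. The transcripts of these 3 glycerol kinases were taken as every contig (reference transcript) of the deposited count table whose gene symbol was Gk2, Gykl1 or Gk5. Of 12114 contigs in the table, 2 were members, 1 of Gk2 and 1 of Gykl1, and both passed the filter on low counts. Gk5 had 0 contigs in the table and is not analysed here, and neither is the parental gene Gk.

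The reads came from nanopore direct RNA sequencing, in which each polyadenylated RNA molecule is read as such from its 3′ end, of round spermatids (RS) and elongated spermatids (ES) sorted from testes of adult mice. Mice of either genotype, Tent5c wt/wt or Tent5c dcat/dcat, gave both cell types, and dcat stands for a TENT5C protein, a poly(A) polymerase of the spermatid cytoplasm, without catalytic activity. The allele is present in every cell of the animal, and it alters the protein, so the Tent5c transcript level does not check the label. Each of the 4 groups held 3 libraries, and each library was made from RNA pooled from 3 mice, so that the spread between libraries is that between pools and not between animals.

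Library totals ranged from 337287 to 1359427 counts, the lowest in ES wt/wt replicate 3, and 11831 contigs were tested. Levels are given as CPM, the reads of a contig per fixed number of reads of its library, scaled by the trimmed mean of M-values (TMM), which sets the bulk of contigs level between libraries. The 7 elongated spermatid markers examined, among them Prm1 and Tnp1, summed to 19136 to 41377 CPM in RS and 209060 to 278447 CPM in ES, whereas the 4 round spermatid markers summed to 601 to 719 CPM in RS and 647 to 726 CPM in ES and did not separate the stages. Summed markers of somatic cells were higher in ES too. The 4 of 8 Leydig cell markers with a contig (Insl3, Cyp11a1, Cyp17a1 and Fabp3) rose from 10.8 to 39.0 CPM in RS to 197 to 848 CPM in ES, and the 4 of 8 Sertoli cell markers with a contig from 6.41 to 38.0 CPM to 191 to 372 CPM. None of the counted somatic markers was at 0 in a whole group. The 9 of 10 meiotic markers with a contig summed to 742 to 850 CPM in RS and 765 to 951 CPM in ES. The part of other cells in the stage values below was not tested.

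Both genes consist of a single exon. Gk2 (ENSMUST00000059657) lies on the minus strand of chromosome 5, from 97455142 to 97457021 of GRCm38, and its transcript has 1880 bases. The only annotated transcripts across it, 2 of the long non-coding gene 4930467D21Rik, are on the other strand. Gykl1 (ENSMUST00000066193) lies on the plus strand of another chromosome, has a transcript of 1861 bases, and overlaps no other annotated transcript.

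The coding sequences of Gk2 and Gykl1 were identical at 1284 of 1639 aligned bases (78.3%), and each was slightly closer to the parental Gk, at 81.2% for Gk2 and 82.6% for Gykl1. Such related copies can share reads, so their separability was examined on the annotated sequences. Of the 1651 runs of 15 bases in the Gk2 coding sequence, 77 (4.66%) occurred in that of Gykl1. Aligned to all annotated transcripts with the settings for nanopore reads, the whole Gk2 transcript returned its own contig at the highest mapping quality (60), with secondary hits to 2 transcripts of Gk that covered 195 matching bases at quality 0, and none to Gykl1. The Gykl1 transcript returned itself alone. A coding stretch of Gk2 near the stop codon, at chr5:97455411-97455500 (GRCm38, minus strand), is shown because it lies toward the 3′ end, from which the molecule is read, and shows how the copies differ there. Capitals mark the 27 of 90 bases at which it differs from the aligned Gykl1 sequence.
Gk2: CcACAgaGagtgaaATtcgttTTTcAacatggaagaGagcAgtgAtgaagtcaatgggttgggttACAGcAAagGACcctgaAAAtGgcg

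Gk2 was an abundant transcript of round spermatids and stood at 0.433 and 0.411 of that level in elongated spermatids of wt/wt and dcat/dcat mice. RS wt/wt libraries held 1062, 750 and 1626 Gk2 counts, which were 882, 894 and 962 CPM. RS dcat/dcat libraries held 917, 686 and 1103 counts, or 980, 899 and 909 CPM. The 6 RS libraries thus formed one narrow band, irrespective of genotype. ES wt/wt libraries held 180, 199 and 121 counts, or 380, 379 and 427 CPM, and ES dcat/dcat libraries held 153, 165 and 225 counts, or 355, 412 and 380 CPM. Every ES library was below every RS library, and the genotypes overlapped within each stage. Group means were 913 ± 42.8 CPM in RS wt/wt, 929 ± 43.9 in RS dcat/dcat, 395 ± 27.6 in ES wt/wt and 382 ± 28.7 in ES dcat/dcat (SD, n = 3 each). Gk2 ranked between 69 and 89 among the 11831 contigs in RS libraries and between 438 and 602 in ES libraries.

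Gykl1, the other testis copy, was less abundant than Gk2 in RS and lay at a similar level to it in ES. RS wt/wt libraries held 661, 431 and 846 Gykl1 counts, or 549, 514 and 500 CPM, and RS dcat/dcat libraries held 516, 357 and 619 counts, or 551, 468 and 510 CPM. ES wt/wt libraries held 203, 266 and 112 counts, or 429, 506 and 396 CPM, and ES dcat/dcat libraries held 168, 171 and 248 counts, or 390, 427 and 419 CPM. The stages overlapped in wt/wt, since ES replicate 2 was above RS replicate 3, and did not overlap in dcat/dcat. Group means were 521 ± 25.3, 510 ± 41.6, 443 ± 56.7 and 412 ± 19.7 CPM in RS wt/wt, RS dcat/dcat, ES wt/wt and ES dcat/dcat (SD, n = 3 each). Gykl1 ranked between 170 and 230 in RS libraries and between 383 and 545 in ES libraries.

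**Figure D1:**
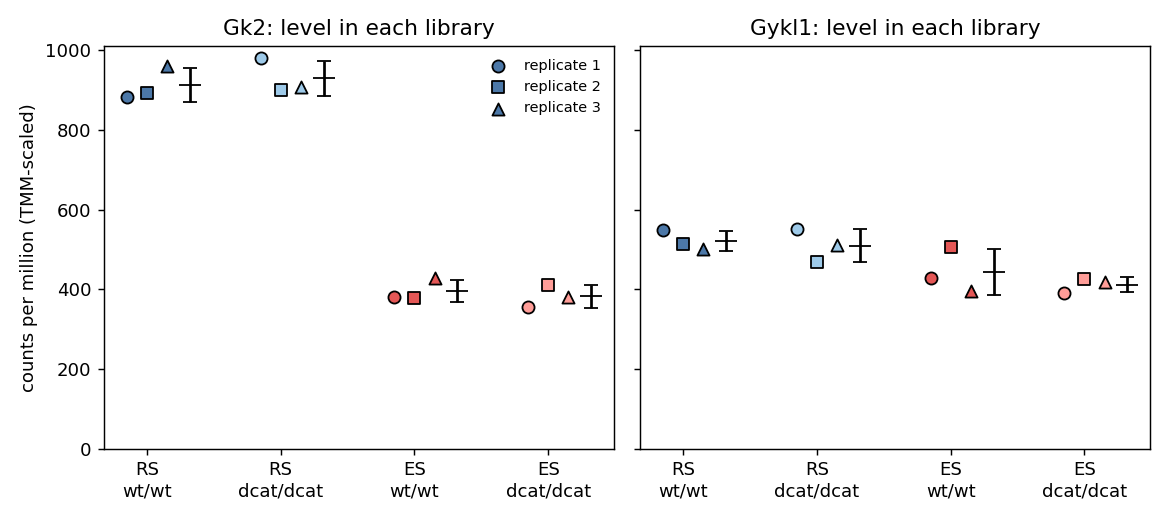
Level of Gk2 (left) and Gykl1 (right) in each library, in TMM-scaled CPM, by stage and Tent5c genotype. Symbols are replicates 1 to 3, and the bars beside them are the group mean and SD (n = 3). Gk2 lies between 882 and 980 CPM in RS and between 355 and 427 CPM in ES, and Gykl1 between 468 and 551 and between 390 and 506 CPM.

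The members were chosen by the measured fall of Gk2 from RS to ES in these counts and by how tight that fall was, so the stage values of the members are a description and carry no test. In the fit across all contigs, Gk2 in ES against RS was at a log2 change of -1.21 (SE 0.136) in wt/wt and -1.28 (SE 0.136) in dcat/dcat. In wt/wt 11.4% of contigs and in dcat/dcat 9.80% of contigs were lower still. A smaller standard error than that of Gk2 was found for 0.178% of contigs in wt/wt and 0.169% in dcat/dcat, and than that of Gykl1 for 0.507% and 0.516%. Gykl1 was at a log2 change of -0.23 (SE 0.147) in wt/wt and -0.31 (SE 0.147) in dcat/dcat. These lie close to the median contig, at -0.24 and -0.18. For wt/wt the Gykl1 value became -0.12 without ES replicate 1 and also without ES replicate 3, while the Gk2 values ranged from -1.24 to -1.11 over the libraries left out in wt/wt and from -1.31 to -1.22 in dcat/dcat. Across all contigs, 16.5% were lower in ES at an adjusted p of 0.05 in wt/wt and 16.9% in dcat/dcat, and 27.3% and 25.2% had all ES libraries below all RS libraries. The rule used this contrast, so nothing is read from these shares.

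The size of the stage change differed between TMM and library totals. Its distance from the median contig hardly did, but a change of scaling shifts all contigs nearly alike, so this was bound to be so. TMM factors were 0.741 to 0.841 in ES against 1.25 to 1.31 in RS. With library totals only, Gk2 stood at -1.92 in wt/wt and -1.95 in dcat/dcat and Gykl1 at -0.95 and -0.98, beside median contigs at -0.96 and -0.85. Relative to the median contig, Gk2 was at -0.97 in wt/wt and -1.10 in dcat/dcat under TMM and at -0.96 and -1.11 under library totals. Gykl1 was at 0.01 and -0.13 relative to the median under either scaling. When only contigs with at least 10 counts in every library were kept, Gykl1 stood at -0.55 and -0.58 and Gk2 at -1.53 and -1.56, beside a median contig at -0.07 and -0.05. Relative to that median, Gk2 was at -1.46 and -1.51 and Gykl1 at -0.48 and -0.53, so the distance did depend on the contigs kept. In bulk samples, fewer cells of a type and less RNA per cell cannot be told apart.

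**Figure D2:**
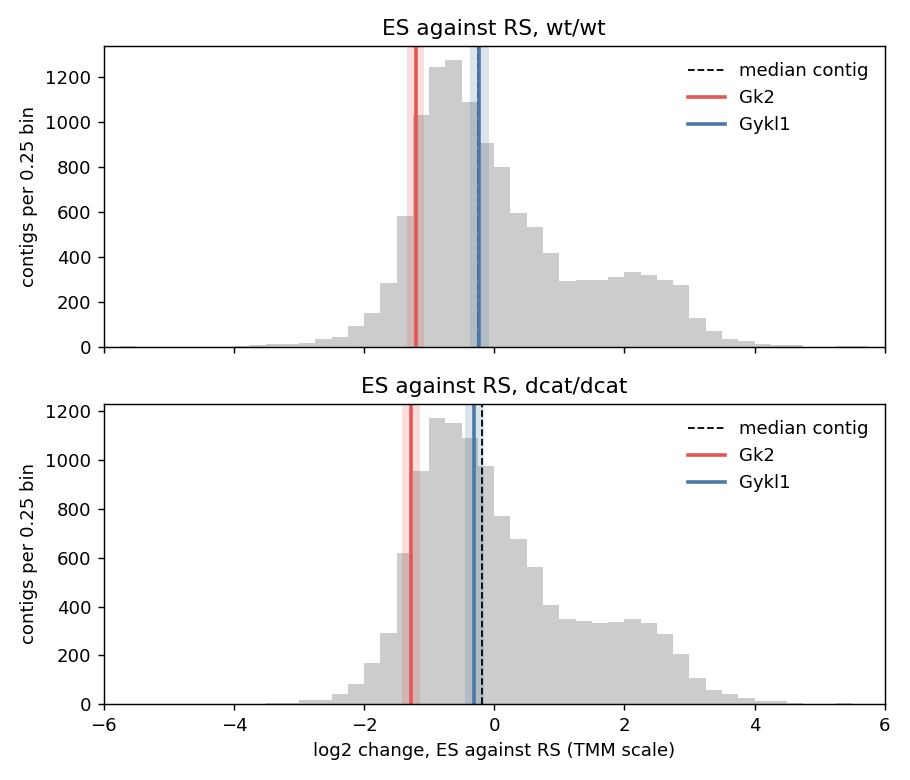
Distribution of the log2 change of ES against RS over 11831 contigs, in bins of 0.25, for wt/wt (top) and dcat/dcat (bottom). Coloured lines are Gk2 and Gykl1 with a band of 1 SE either way, and the dashed line is the median contig. Gk2 is in the lower flank at -1.21 and -1.28, while Gykl1 is near the median.

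A ratio of reads within a library does not depend on the scaling between libraries, and the transcripts of Gk2 and Gykl1 differ little in length. Reads of Gykl1 per read of Gk2 numbered 0.622, 0.575 and 0.520 in the RS libraries of wt/wt mice, while those of dcat/dcat mice had 0.563, 0.520 and 0.561. In ES they numbered 1.13, 1.34 and 0.926 in wt/wt, with 1.10, 1.04 and 1.10 in dcat/dcat. All ES libraries were above all RS libraries, and the genotypes overlapped at each stage. Gykl1 thus provided 36.4% ± 2.07 of the reads of the pair in RS wt/wt libraries and 35.4% ± 1.01 in RS dcat/dcat libraries, against 52.8% ± 4.57 in ES wt/wt and 51.9% ± 0.862 in ES dcat/dcat (SD, n = 3 each). The log2 ratio was higher in ES by 0.97 in wt/wt and 0.98 in dcat/dcat, or 1.96-fold and 1.97-fold, which restates the different stage changes of the members and is likewise a description. In the ES libraries, which held 233 to 473 reads of the pair, the exact binomial 95% interval of the share included 50% in 5 of 6 libraries, the exception being ES wt/wt replicate 2 at 57.2% (52.6 to 61.8%). These intervals cover counting error only.

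**Figure D3:**
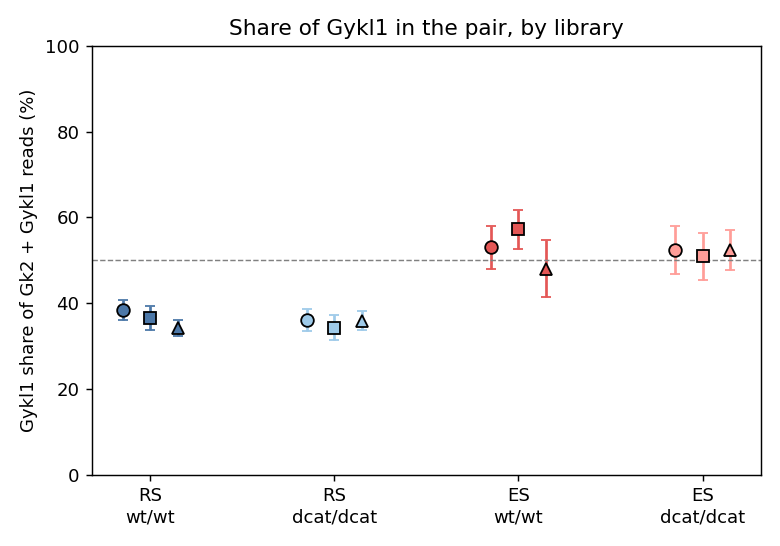
Share of Gykl1 among the reads of Gk2 and Gykl1 in each library, in percent. Symbols are replicates 1 to 3, bars are exact (Clopper-Pearson) 95% intervals and the dashed line is an equal share. RS libraries lie between 34.2% and 38.4% and ES libraries between 48.1% and 57.2%.

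Each RNA molecule is read as such in these data, so CPM needs no scaling by transcript length, and values per kilobase are given only as a description. On that scale too Gk2 was above Gykl1 in RS, at 485 ± 22.8 against 280 ± 13.6 CPM per kb in wt/wt and 494 ± 23.4 against 274 ± 22.4 in dcat/dcat. In ES their ranges overlapped in wt/wt, with Gk2 at 210 ± 14.7 and Gykl1 at 238 ± 30.4 CPM per kb, and also in dcat/dcat, with 203 ± 15.3 and 221 ± 10.6 (SD, n = 3 each). The summed level of both kinases was 1434 ± 27.4 CPM in RS wt/wt, 1439 ± 83.7 in RS dcat/dcat, 839 ± 40.1 in ES wt/wt and 794 ± 47.5 in ES dcat/dcat.

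The contrast of genotypes was not itself used to choose the members and was tested. Gk2 was chosen for a tight fall in both genotypes, however, which can favour small genotype differences. The Gk2 results below are therefore not fully independent of that choice. It asks whether loss of TENT5C catalytic activity altered the amount of these transcripts at either stage. Gk2 in dcat/dcat differed from wt/wt by a log2 value of 0.03 in RS (SE 0.131, 95% interval -0.25 to 0.31, unadjusted p = 0.844, adjusted p = 0.99995, edgeR) and by -0.05 in ES (95% interval -0.34 to 0.25, unadjusted p = 0.740, adjusted p = 0.99997, edgeR). Gykl1 differed by -0.03 in RS (95% interval -0.34 to 0.28, unadjusted p = 0.834, adjusted p = 0.99995, edgeR) and by -0.11 in ES (95% interval -0.43 to 0.21, unadjusted p = 0.470, adjusted p = 0.99997, edgeR). These intervals leave out a decrease of Gk2 below 0.838 of its wt/wt level or an increase above 1.24 times in RS, and below 0.790 or above 1.19 times in ES. For Gykl1 the bounds were 0.791 and 1.21 times in RS and 0.743 and 1.15 times in ES. The sign of such small values turned in single cases. The Gk2 value in RS became -0.01 without RS wt/wt replicate 1 or RS dcat/dcat replicate 1, the Gykl1 value in RS became positive without RS wt/wt replicate 1 or RS dcat/dcat replicate 2, at up to 0.03, and the Gk2 value in ES became positive without ES dcat/dcat replicate 1.

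The change from RS to ES did not differ detectably between genotypes either. For Gk2 this compares the falls for which it was chosen, so that its interaction is a limited test. The interaction was -0.07 for Gk2 (95% interval -0.48 to 0.33, unadjusted p = 0.707, adjusted p = 0.99999, edgeR) and -0.08 for Gykl1 (95% interval -0.52 to 0.36, unadjusted p = 0.706, adjusted p = 0.99999, edgeR), the latter turning to 0.03 without ES wt/wt replicate 2. Over both stages together, an exact two-sided permutation of genotype within stage (400 arrangements, smallest possible p = 0.005, 3 quantities) gave a mean log2 difference of -0.01 for Gk2 (p = 0.835, adjusted p = 0.835), of -0.07 for Gykl1 (p = 0.32, adjusted p = 0.75) and of -0.06 for the Gykl1 to Gk2 read ratio (p = 0.5, adjusted p = 0.75). Gk2 and Gykl1 were each higher in dcat/dcat in 3 of the 6 same-numbered pairs of libraries and lower in 3. Among all contigs, edgeR called 0 of 11831 (0%) at an adjusted p of 0.05 in RS, in ES and for the interaction. An unadjusted p under 0.05 was found for 98 (0.828%), 356 (3.01%) and 170 (1.44%). Without any difference a share of 0.05 would be reached, so the test was conservative here. The lack of a call is weak evidence of sameness, and the intervals above give the bounds. DESeq2 called 0, 1 and 0 contigs, none of them a member. Groups did not overlap for 5.31% of contigs in RS and 7.66% in ES, and those of Gk2 and Gykl1 overlapped in both.

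**Figure D4:**
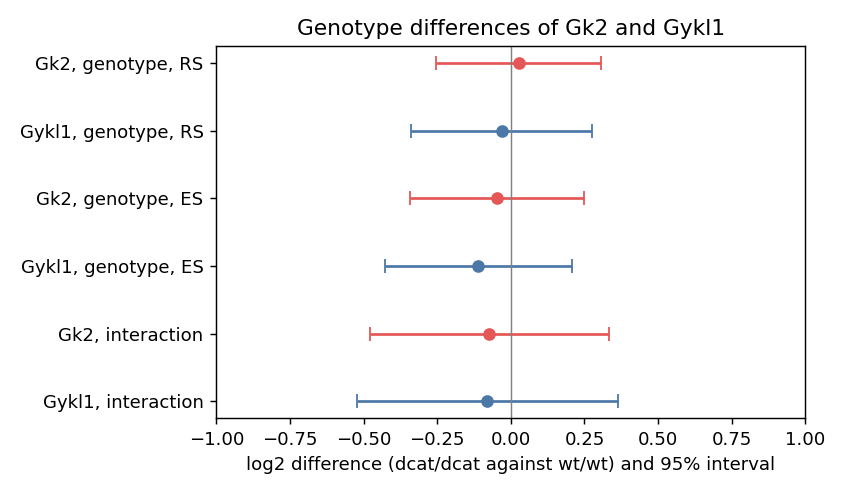
Genotype difference on the log2 scale (dcat/dcat over wt/wt) for Gk2 (red) and Gykl1 (blue) in RS, in ES, and for the interaction of genotype with stage, from the edgeR fit. Points are estimates and bars are 95% intervals, all of which include 0.

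Over the 12 libraries Gk2 and Gykl1 levels correlated at Pearson r = 0.789, a value set by the shared stage difference, and their deviations from the group means at -0.08. The libraries share depth and scaling, so these values are a description. Among 3371 contigs with a mean of at least 50 CPM, the 5 most like Gk2 were Cfap36, a cilia- and flagella-associated protein (r = 0.996), Tomm20l, a paralogue of a mitochondrial import receptor (0.994), the spermatid RNA helicase Ddx25 (0.993), the retroposed poly(A)-binding protein Pabpc2 (0.992) and the carnitine transporter Slc22a21 (0.989). Their log2 changes in wt/wt ran from -1.20 to -0.83, and 13.8% of the contigs compared reached r over 0.9 with Gk2. Gykl1 had few close matches, 0.208% of contigs over 0.9. The 5 nearest were Ppp2r2d, a regulatory subunit of protein phosphatase 2A (0.944), the disulphide isomerase Pdia3 (0.922), the checkpoint gene Rad17 (0.918), the proteasome subunit Psma4 (0.916) and the mitochondrial dehydrogenase subunit Idh3b (0.915).

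The genes around the kinase step were examined as a list of 38 genes of glycerol transport, glycerol-3-phosphate and glycerolipid metabolism, 21 of which had a contig. In wt/wt, 28 of their 49 tested contigs were higher in ES, 3 were lower and 18 did not pass the test, and in dcat/dcat 31 were higher and 1 lower (edgeR, adjusted p at or under 0.05). Among all contigs, 23.8% were higher and 16.5% lower in wt/wt, with 24% higher and 16.9% lower in dcat/dcat. The median log2 change of the list's contigs was 1.24 in wt/wt and 0.91 in dcat/dcat against -0.24 and -0.18 for all contigs. Contigs of the same gene count separately here, and Lpin1, Lipe, Agpat3 and Gpd2 each gave several of the higher ones. With counts summed by gene, 10 genes were higher and 3 lower in wt/wt, with 11 and 2 in dcat/dcat. Of all 7706 features of that fit, 3776 and 3794 were then called in either direction. With library totals only, wt/wt had 17 higher and 8 lower, and dcat/dcat 18 higher and 7 lower, beside median contigs at -0.96 and -0.85. Of all 11831 contigs, 7364 and 6959 were called in either direction with library totals. The summed level of the list was 3386 to 3881 CPM in RS and 6554 to 7678 CPM in ES, opposite in direction to Gk2. These RNA levels do not show whether the proteins of Gk2 and Gykl1 carry out the kinase step.

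Genes that use glycerol-3-phosphate were among those that rose. With each gene taken by its contig with the most counts, Gpd2, Gpat4, Agpat2, Agpat3 and Aqp7 had the smallest adjusted p of the list in wt/wt. Their values therefore stand for its strong end. Of the others, named after their values were seen, Gpat2 was at -0.16 in wt/wt (adjusted p = 0.800, edgeR). Pgp, whose main contig had 16701 counts, was higher by only 0.51 in wt/wt and 0.37 in dcat/dcat (adjusted p = 0.00696 and 0.0383, edgeR). Gpd2, the mitochondrial dehydrogenase that oxidises glycerol-3-phosphate, had 97, 57 and 161 counts in RS wt/wt and 219, 188 and 86 in ES wt/wt. These were 68 to 95 and 304 to 463 CPM. Its log2 change was 2.20 (SE 0.195, adjusted p = 1.9e-06, edgeR) in wt/wt and 2.12 in dcat/dcat. Gpat4, which acylates glycerol-3-phosphate in the first step of glycerolipid synthesis, rose from a mean of 186 to 804 ± 96.3 CPM in wt/wt (SD, n = 3), a log2 change of 2.11 (adjusted p = 1.7e-06, edgeR). Agpat2 and Agpat3, which add the next acyl chain, rose by 2.75 (SE 0.366) and 2.80 (SE 0.582) in wt/wt (adjusted p = 4.0e-05 and 0.00149, edgeR). The other Agpat3 contigs all rose less, by 0.999 to 1.51 in wt/wt and by 0.876 to 1.72 in dcat/dcat. The contig at 1.51 did not pass the test in wt/wt (adjusted p = 0.0518, edgeR). The main Agpat3 contig varied widely between ES libraries, at 237, 60 and 97 counts in wt/wt, with 174, 43 and 48 in dcat/dcat. Its dcat/dcat log2 change of 2.06 (adjusted p = 0.0110, edgeR) was 1.003 without ES dcat/dcat replicate 1 and then did not pass the test (adjusted p = 0.123, edgeR). Aqp7, the aquaglyceroporin that carries glycerol across the sperm plasma membrane, was higher by 1.38 in wt/wt (SE 0.295, adjusted p = 0.00184, edgeR) and 0.88 in dcat/dcat (adjusted p = 0.0278, edgeR), and was not called in either genotype with library totals only (adjusted p = 0.0589 and 0.546). Its dcat/dcat call was also lost with at least 10 counts in every library (adjusted p = 0.0667, edgeR) and without RS replicate 1, RS replicate 2, ES replicate 1 or ES replicate 3 (adjusted p = 0.0507, 0.103, 0.0790 and 0.0603, edgeR). Lipe, the hormone-sensitive lipase, is added here after its values were seen. Its 5 contigs held only 178 to 243 counts each over all 12 libraries. They were higher in ES by 1.84 to 3.55 in wt/wt and by 1.52 to 2.72 in dcat/dcat (highest adjusted p = 0.00287 and 0.00937, edgeR). The smallest adjusted p in wt/wt, 5.9e-06 (edgeR) for a contig with 206 counts, was below those given for Agpat3 and Aqp7. Contigs this scarce can pass the filter on low counts through ES alone, so the size of their rise is uncertain. The 3 contigs that were lower in wt/wt, named after their values were seen, were of the channel Aqp9 (-1.47), the triokinase Tkfc (-1.58) and the acyltransferase Dgat1 (-0.96), and the 1 in dcat/dcat was of the lipase Pnpla2 (-0.93). With the replicate number as a block, the lower contigs were 5 in wt/wt and 6 in dcat/dcat. Without ES wt/wt replicate 2 the wt/wt count of lower contigs was 1. In dcat/dcat it was 0 without RS replicate 3 or ES replicate 2, and 2 without ES replicate 3.

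Genes known in the mitochondrial sheath or in mitochondrial dynamics, a list of 21 genes of which 20 had a contig, moved in both directions, as contigs in general did. Of 42 contigs tested, 13 were higher and 4 lower in wt/wt, with 14 higher and 5 lower in dcat/dcat (edgeR, adjusted p at or under 0.05), with a median log2 change of 0.22 and 0.39. In either direction, 40.5% and 45.2% of the list were called. This is near the share over all contigs, of which 4766 and 4849 of 11831 were called. Among all contigs, 23.8% were higher and 16.5% lower in wt/wt, with 24% and 16.9% in dcat/dcat. With library totals only the split turned to 10 higher and 16 lower in wt/wt, with 11 higher and 13 lower in dcat/dcat. Under that scaling 7364 and 6959 of all 11831 contigs were called, and the median contig stood at -0.96 and -0.85. Smcp, a cysteine-rich protein of the mitochondrial capsule that also stood among the elongated spermatid markers, rose by 2.43, Spata19, needed for sperm mitochondrial organisation, by 2.04, and Tbc1d21, a midpiece protein, by 1.66 in wt/wt (highest adjusted p = 1.2e-05, edgeR). In contrast, the outer membrane channels Vdac2 and Vdac3 were lower, with a log2 change of -1.26 (SE 0.188, adjusted p = 1.1e-04, edgeR) and of -1.18 (SE 0.178, adjusted p = 1.2e-04, edgeR). Vdac2 had 1014, 884 and 923 CPM in RS wt/wt and 439, 287 and 459 CPM in ES wt/wt, levels near those of Gk2 at both stages. Pld6, the known partner of the kinases, was scarce, with 31, 36 and 47 counts in RS wt/wt and 3, 9 and 7 in ES wt/wt, and its log2 change of -1.06 (SE 0.481, adjusted p = 0.0925, edgeR) did not pass the test. It did with library totals only, at -1.77 (adjusted p = 0.00714, edgeR), and with the replicate number as a block, at -1.11 (adjusted p = 0.0129, edgeR). The other lower contigs, named after their values were seen, were of Cyct (-0.91) and Slc25a31 (-1.09) in wt/wt, and of Cyct (-0.96), Mff (-0.77) and Mfn2 (-1.06) in dcat/dcat. With counts summed by gene, 5 sheath genes were higher and 4 lower in each genotype. The count of lower contigs was 9 in each genotype with the replicate block, 2 in wt/wt without RS replicate 2, ES replicate 2 or ES replicate 3, and 3 in dcat/dcat without RS replicate 1, RS replicate 2 or ES replicate 3. Between genotypes, edgeR called 0 contigs of either list in RS, in ES or for the interaction. In the glycerol list 2, 2 and 1 contigs, and in the sheath list 0, 1 and 0, had an unadjusted p under 0.05 in these comparisons.

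**Figure D5:**
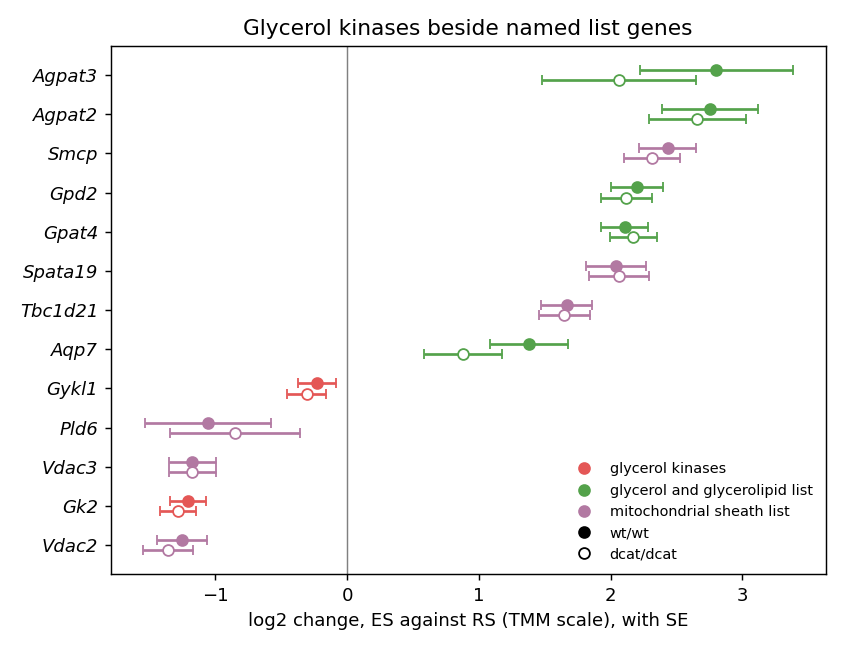
Log2 change of ES against RS with its SE for Gk2, Gykl1 and the named genes of the glycerol and sheath lists, in wt/wt (filled) and dcat/dcat (open). Gk2 at -1.21 lies beside Vdac2 and Vdac3, Gykl1 is near 0, and Gpd2, Gpat4, Agpat2 and Agpat3 lie between 2.06 and 2.80, the lowest being Agpat3 in dcat/dcat, which is 1.003 without ES replicate 1. Each list gene is shown by its contig with the most counts. The other Agpat3 contigs were at 0.999 to 1.51 in wt/wt and 0.876 to 1.72 in dcat/dcat.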

How the data were processed

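Count tables were used as deposited by the authors, who base-called the reads with Guppy, aligned them with minimap2 (2.20-r1061 in the submitters' processing notes) to mouse GENCODE transcripts on GRCm38, kept reads with a passing Nanopolish tail estimate, and demultiplexed them with Deeplexicon. The values are raw counts per contig. Oligo(dT) selection and the tail filter mean that RNAs without a measurable poly(A) tail are not counted. The authors' DESeq2 tables served only for gene symbols (present for 11225 contigs), and their fold change and p-value columns were not used. Gene structures and sequences were from a later GENCODE annotation of the same build.

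Groups came from the labels. Contigs reaching 10 counts in 2 or more libraries of any group were fitted in edgeR 4.0.16 (R 4.3.3; TMM, quasi-likelihood test, all 12 libraries, Benjamini-Hochberg over 11831 contigs, tested on simulated data), with DESeq2 1.42.0 as an alternative. Log2 CPM used a prior count of 2. Library totals were 337287 to 1359427. A count of 0 would allow up to 3 counts, or 1.77 to 10.6 CPM, a floor that no member approached. No 2 libraries held identical values. Named were all contigs of the members, for each list the 5 genes with the smallest adjusted p in wt/wt, each gene by its contig with the most counts, Gk, Gpd2, Gpd1l, Pld6 and Vdac2 whatever their values (Gk and Gpd1l had no contig), and the 5 contigs most like each member. The members and gene lists were chosen with earlier results of these data known. Same-numbered RS libraries of the 2 genotypes deviated together (r = 0.696, 0.385 and 0.467). The study sorted a mouse of each genotype in every session and took the cell types from the same mouse. Whether a replicate number marks the same sessions was not given in the sources used here.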

Additional observations from a re-analysis of the deposited data

How the results depend on the processing

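Depth limits ES most, where the members had 112 to 266 counts a library. Genotype values of Gk2 and Gykl1 stayed above an adjusted p of 0.05 under every alternative run. With library totals only, the stage values were -1.92 and -1.95 for Gk2 and -0.95 and -0.98 for Gykl1 (wt/wt and dcat/dcat), the glycerol list had 17 and 18 contigs higher and 8 and 7 lower, the sheath list had 16 and 13 lower, and the Gk2 genotype difference over both stages turned to 1.5e-04 (exact permutation p = 1). With at least 10 counts in every library they were -1.53 and -1.56 for Gk2 and -0.55 and -0.58 for Gykl1. Then 12 and 11 glycerol contigs were higher and 2 and 1 lower, while 2588 and 2562 of all 3719 contigs tested were called in either direction. This filter and the summing of counts by gene leave fewer features to test. With counts summed by gene, Gk2 stood at -1.10 and -1.17, with 10 and 11 glycerol genes higher and 3 and 2 lower, and 5 sheath genes higher and 4 lower in each genotype. DESeq2 called 0 glycerol contigs lower in dcat/dcat, and the fit with only the libraries compared 0, with 3 sheath contigs lower. The cause of the other differences was not tested.

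Same-numbered ES libraries correlated at 0.454, 0.306 and 0.0336, and same-numbered RS and ES libraries at 0.403, 0.363 and -0.09 in wt/wt and at 0.519, 0.252 and 0.291 in dcat/dcat. In RS and in ES, each wt/wt library correlated best with the dcat/dcat library of its own number. Between stages the same held except for RS wt/wt replicate 3, which matched ES replicate 2 best. The main fit did not take the numbers as pairs, so deviations shared by number stayed in its error. With the replicate block, 6105 and 6145 contigs were called between stages in wt/wt and dcat/dcat, against 4766 and 4849 without it. With the replicate block, the genotype difference of Gk2 was 0.03 in RS and -0.05 in ES, the lower contigs numbered 5 and 6 in the glycerol list and 9 and 9 in the sheath list, and 3 contigs in RS and 1 in ES were called between genotypes. The block changed no call on Gk2 or Gykl1, and called Pld6 lower in wt/wt. With replicate numbers as pairs, the exact permutation p over both stages was 0.875 for Gk2, 0.25 for Gykl1 and 0.53125 for their ratio.

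Leaving out each library gave ranges of -1.24 to -1.11 (wt/wt) and -1.31 to -1.22 (dcat/dcat) for the Gk2 stage change and -0.29 to -0.12 and -0.37 to -0.25 for Gykl1. Genotype values ranged from -0.0089 to 0.054 (Gk2, RS), -0.10 to 0.0046 (Gk2, ES), -0.086 to 0.032 (Gykl1, RS), -0.21 to -0.01 (Gykl1, ES), -0.13 to -0.02 (Gk2, interaction) and -0.17 to 0.029 (Gykl1, interaction). Over both stages they ranged from -0.039 to 0.017 for Gk2, -0.11 to -0.02 for Gykl1 and -0.12 to 0.0091 for the ratio. Glycerol contigs numbered 26 to 30 higher and 1 to 3 lower in wt/wt, and 24 to 29 higher and 0 to 2 lower in dcat/dcat. Sheath contigs numbered 11 to 14 higher and 2 to 5 lower in wt/wt, and 13 to 14 higher and 3 to 5 lower in dcat/dcat. Each kinase has 1 contig, so taking its most abundant contig was no change and was not run.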
